A study of Mus musculus with 11 samples.

Results

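The mouse trypsinogen cluster was followed through 9 genes, Prss1, Prss2, Prss3, Try4, Try5, Try10, Gm5771, 1810009J06Rik and Gm10334. They were taken by gene name from the deposited count tables, where they were 9 of 54532 genes listed for the pancreas and 9 of 46078 listed for epididymal adipose tissue. All 9 had counts in every pancreas library, whereas in adipose tissue 1 library held nearly all of their counts.

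RNA sequencing was done on 11 libraries of male C57BL/6J wild type mice aged about 16 weeks. Control mice had eaten chow with 10 kcal% fat for 12 weeks and received 2 intraperitoneal saline injections 1 h apart, and tissue was taken 12 h after the first. Mice with obesity-related alcohol-induced acute pancreatitis (OA-AP) had eaten a diet with 60 kcal% fat for 12 weeks and received 2 intraperitoneal injections of ethanol at 2 g/kg, 1 h apart, with the same collection time. There were 2 control and 3 OA-AP libraries of the pancreas, and 3 control and 3 OA-AP libraries of adipose tissue. The groups differed in diet and ethanol together, so the effect of obesity, of ethanol and of the resulting pancreatitis cannot be told apart. No lean mouse given ethanol and no obese mouse given saline was analysed here.

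Trypsinogens are inactive precursors of trypsin that pancreatic acinar cells store in zymogen granules and secrete into the duodenum. There enteropeptidase removes a short activation peptide, and the trypsin formed then activates the other digestive zymogens and further trypsinogen. Premature activation inside the acinar cell is a classical event of acute pancreatitis, and the trypsin inhibitor Spink1 and the trypsinogen-degrading protease Ctrc are known to limit it.

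The 9 genes lie within 560.3 kilobases of chromosome 6, inside the T cell receptor beta locus, with 48 other annotated genes between the outermost members, 33 of which are variable segments. On GRCm38 the first member is 1810009J06Rik at chr6:40964754-40968435. The other 8 lie between the variable segment Trbv30 and the diversity segment Trbd1. They are Try4 at chr6:41302269-41305532, Try5 at chr6:41311233-41316841, Try10 at chr6:41354105-41357914, Prss3 at chr6:41373814-41377678, Gm5771 at chr6:41392356-41397230, Gm10334 at chr6:41442216-41446145, Prss1 at chr6:41458932-41463786 and Prss2 at chr6:41521787-41525079. Try5, Prss3 and Gm10334 are on the minus strand and the other 6 on the plus strand. Each is annotated as protein coding, with 5 exons in GENCODE M21.

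The copies are so alike that a read may match several of them. Prss3 and Gm10334 shared 99.1% of their aligned coding bases, Gm5771 and Prss1 97.6%, and all pairs among these 4 genes at least 96.2%. Try4 and Try5 shared 97.4%, and Try10 shared 95.4% with Try4. Prss2 was 88.5% to 91.7% identical to those 7 genes. 1810009J06Rik stood farthest off, at 69.9% to 72.3% to the other members, but shared 99.5% with its neighbour Gm2663, which is not a member. The reads were 150 bases long, so the share of 150-base stretches of a transcript that occur unchanged in a transcript of another gene was counted in GENCODE M21. It was 51.7% for 1810009J06Rik, all with Gm2663, 31.2% for Prss3, 28.9% for Gm10334, 19.2% for Try4 and for Try5, 7.4% for Gm5771 and 3.7% for Prss1. It was 0% for Prss2 and Try10. How reads that match several genes were counted is not given in the sources used here, so values of the other 7 genes are uncertain and are given beside sums over the copies. If such reads were left uncounted, they are missing from the sums and shares too. Reads shortened by trimming could also match several genes, and the longest exact match of Try10 was 131 bases, with Try4.

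**Figure D1:**
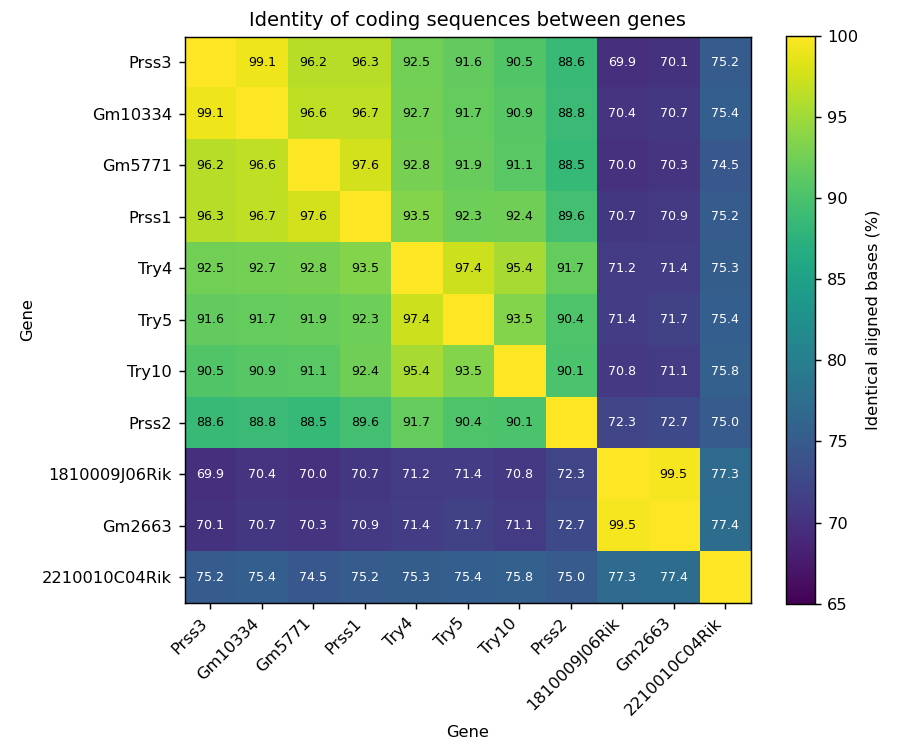
Heat map of the percentage of identical aligned coding bases for each pair of the 9 trypsinogen cluster genes and their neighbours Gm2663 and 2210010C04Rik, with genes on both axes. Prss3, Gm10334, Gm5771 and Prss1 form 1 block of at least 96.2% and 1810009J06Rik pairs with Gm2663 at 99.5%.

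The start of the coding sequence shows this likeness. It holds the codons of the signal peptide, of the activation peptide and of the first residues of mature trypsin, and is printed for the 4 most alike copies (Prss3, Gm10334, Gm5771 and Prss1, of which Gm10334 and Prss1 were called lower in OA-AP pancreas), for Try4 and for Prss2. The sequences are from GENCODE M21, read 5′ to 3′ from coding base 1, with capitals at bases that differ from Prss3.
Prss3: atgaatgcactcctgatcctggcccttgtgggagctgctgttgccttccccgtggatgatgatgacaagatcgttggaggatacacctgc
Gm10334: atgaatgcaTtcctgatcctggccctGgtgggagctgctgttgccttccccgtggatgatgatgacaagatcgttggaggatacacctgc
Gm5771: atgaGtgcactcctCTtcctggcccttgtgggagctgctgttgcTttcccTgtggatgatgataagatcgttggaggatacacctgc
Prss1: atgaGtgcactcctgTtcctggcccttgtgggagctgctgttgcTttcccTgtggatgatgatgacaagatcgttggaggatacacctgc
Try4: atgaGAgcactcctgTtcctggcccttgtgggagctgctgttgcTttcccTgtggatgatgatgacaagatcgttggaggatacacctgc
Prss2: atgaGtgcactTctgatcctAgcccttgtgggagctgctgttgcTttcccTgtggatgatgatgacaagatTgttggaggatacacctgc
Over these 90 bases Gm10334 differed from Prss3 at 2, Prss1 at 4, Try4 at 5 and Prss2 at 6 bases. Gm5771 was 3 bases shorter here, lacking 1 codon, and differed at 5 of the remaining 87.

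Promoter sequences of 6 members were listed in the RefSeq table on GRCm38.p6. The last 150 bases before the listed start are shown for Prss2, which was not called in OA-AP pancreas, for Try4 and Prss1, which were called lower, and for Prss3, whose difference did not pass the test. Capitals mark matches, on either strand, to CACCTG, an E-box of the kind bound with the acinar factor Ptf1a, to TTCCCA, a core bound by Rbpj and Rbpjl, and to the TATA element TATAAA.
Prss2 (chr6:41521626-41521775, plus strand): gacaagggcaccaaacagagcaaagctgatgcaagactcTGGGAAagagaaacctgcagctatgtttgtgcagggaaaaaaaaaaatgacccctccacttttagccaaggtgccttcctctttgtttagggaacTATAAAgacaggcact
Try4 (chr6:41302122-41302271, plus strand): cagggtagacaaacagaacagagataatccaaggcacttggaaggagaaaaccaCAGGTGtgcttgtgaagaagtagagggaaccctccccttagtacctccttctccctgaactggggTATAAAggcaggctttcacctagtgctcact
Prss3 (chr6:41377614-41377763, minus strand): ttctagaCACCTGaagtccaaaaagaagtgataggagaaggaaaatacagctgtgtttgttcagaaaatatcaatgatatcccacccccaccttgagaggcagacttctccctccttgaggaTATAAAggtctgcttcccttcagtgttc
Prss1 (chr6:41458780-41458929, plus strand): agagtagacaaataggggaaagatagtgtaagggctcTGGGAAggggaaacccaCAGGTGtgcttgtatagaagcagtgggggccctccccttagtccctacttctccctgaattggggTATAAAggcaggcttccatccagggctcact
In the 250 bases before the start CACCTG occurred in 6 of the 6 listed members, against 17.2% of all 32851 listed promoters, and TATAAA in 6 of 6 against 12.4%. Some of these promoters are close copies of each other, so the 6 are not independent cases. TTCCCA occurred in 3 of 6, Gm5771, Prss1 and Prss2, against 21.6%. A further motif, AAGGTCA, read by nuclear receptors such as Nr5a2, occurred in Gm5771 and Prss1, against 4.1%. Identity between listed promoters, with bases lacking a counterpart counted as differences, was 54.3% for Prss3 and Prss1. It was 84.6% for Prss3 and Gm10334 and 83.7% for Gm5771 and Prss1. The listed starts of close copies are offset, with TATAAA beginning 28 bases before the start in Prss3 and 11 in Gm10334. Part of each window thus has no counterpart in the other, which lowers these values. Called and uncalled members both held CACCTG and TATAAA, so these letters did not separate them. The matches describe the sequence and show no binding.

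Counts on genes ranged from 14188832 to 17238919 per pancreas library and from 20825177 to 27928097 per adipose library. Acinar identity of the pancreas libraries was plain, with 33 other acinar secretory genes making up 63.7% and 65.3% of counts in control and 52.6% to 54.6% in OA-AP. Marker sums of islet cells were 11440 and 12089 counts in control and 23714 to 31398 in OA-AP pancreas, and those of neutrophils 11 and 19 against 57 to 1818, the highest in OA-AP replicate 3. Adipocyte markers summed to 280 and 383 counts in control and 653 to 1354 in OA-AP pancreas, nearly all from Fabp4 (279 and 378 against 639 to 1341), with at most 1 count of Adipoq and 3 of Plin1 in any library. Duct markers summed to 2451 and 2906 against 2917 to 5090. As shares of the library the sums of macrophage and intestine markers were also higher in OA-AP without overlap, at 0.00295% and 0.00667% against 0.00716% to 0.00811% and at 7.65e-05% and 0.000143% against 0.000162% to 0.000319%. The intestine sums were only 21 and 11 counts against 23 to 55. Relative to library totals the median log2 fold change over all tested genes was itself 0.75, so all these sums and shares are to be read against that shift. With the TMM factors described below, the tested macrophage genes had a median log2 fold change of −0.02. Each list held 8 genes. In the islet list 2 of 8 tested genes were called higher, and in the macrophage list 1 of 8 lower. In the duct list 1 of 7 tested genes was called higher and 2 lower. None of 5 neutrophil, 1 adipocyte and 2 intestine genes tested was called. Among all 12884 tested genes 16.2% were called higher and 13.5% lower. The part of these markers in the results below was not tested. Replicates are libraries labelled as such, so p-values measure the spread between these samples. In bulk tissue, fewer acinar cells and less trypsinogen RNA per cell cannot be told apart. Levels are TMM-scaled CPM, the gene count divided by the scaled library size, as edgeR gives it, and with these factors the log2 fold change had a median of 0.04 over all tested genes. Scaling by library totals moved this median to 0.75, and scaling by the other acinar secretory genes to 1.02, and a fold change of a member is to be read against these medians.

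In control pancreas the members covered a wide range of levels. Per kilobase of the deposited gene length, Try4 was highest at 67570 ± 8969 CPM per kilobase (SD, n = 2). It was followed by Prss2 at 59640 ± 4772, whose 2 values overlapped with those of Try4, and Try5 at 45190 ± 1928. The deposited length of Try5 was 902 bases, while its GENCODE M21 transcript has 801, which would give it a higher level. Prss3 stood at 16840 ± 1213, Gm5771 at 6370 ± 1384 and 1810009J06Rik at 3505 ± 820. The lowest were Gm10334 at 1405 ± 145, Prss1 at 715 ± 4.30 and Try10 at 426 ± 20.5 CPM per kilobase. From Prss2 downward no neighbours in this order overlapped.

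The order changed in OA-AP pancreas. Prss2 was then highest at 46540 ± 6033 CPM per kilobase (SD, n = 3), above every value of Try4 at 20060 ± 7349 and of Try5 at 19220 ± 4485. Try4 and Try5 overlapped each other, and their order depends on the length taken for Try5. Prss3 followed at 796 ± 1037 and Try10, which had been lowest of all in control, at 291 ± 33.4. Below them stood Gm5771 at 160 ± 260, Gm10334 at 22.4 ± 29.8, 1810009J06Rik at 14.7 ± 6.33 and Prss1 at 13.9 ± 20.2 CPM per kilobase. From Prss3 downward each gene overlapped the next.

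The summed RNA of the 9 genes fell in OA-AP pancreas. The family sum was 157700 and 177600 CPM in control and 61930, 64680 and 90640 CPM in OA-AP replicates 1, 2 and 3. Every OA-AP value lay below both control values, with replicate 3 nearest to them. The log2 fold change of the family sum was −1.21 (standard error 0.21, edgeR adjusted p = 0.00402), or 2.32-fold lower. As a share of all counts the family took 12.5% and 12.4% in control and 8.16%, 7.97% and 10.1% in OA-AP, with no overlap (two-sided exact permutation p = 0.1, the smallest that 2 against 3 allows). Per 100 counts of the other acinar secretory genes it was 19.6 and 19.0 in control and 15.5, 14.6 and 18.9 in OA-AP (exact permutation p = 0.2), again with no overlap. The call was lost when the family sum was scaled to those genes (log2 fold change −0.24, adjusted p = 0.164), when library totals were used (−0.51, adjusted p = 0.0104, below a fold change of 1.5) and without control replicate 2 (−1.12, adjusted p = 0.0598).

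Of the 9 members 5 were called lower in OA-AP pancreas and none higher, where a call required an edgeR adjusted p below 0.05 together with a 1.5-fold change or more. Among all 12884 tested genes 13.5% were called lower and 29.8% in either direction. All 9 had lower mean TMM-scaled CPM in OA-AP, a direction that depended on the scaling for Prss2 and Try10. Copies may share reads, so the 9 are not independent cases. Called were Try4, Try5, Gm10334, Prss1 and 1810009J06Rik. Without OA-AP replicate 3 the number called was 7, without OA-AP replicate 2 it was 4, and without control replicate 1 or 2 it was 3 or 2.

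**Figure D2:**
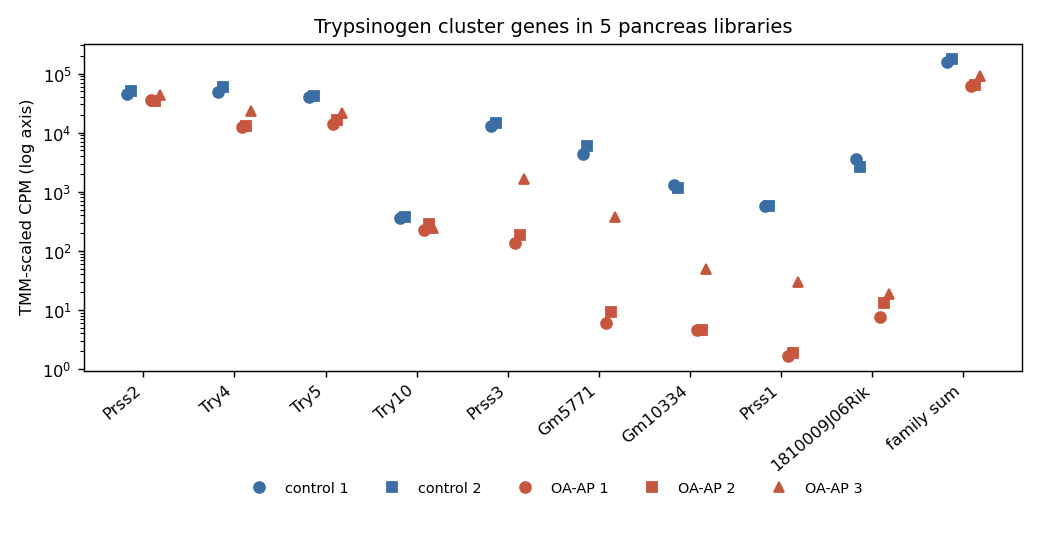
TMM-scaled CPM (log axis) of each trypsinogen cluster gene and of the family sum in each of the 5 pancreas libraries, with control in blue, OA-AP in red and the replicate number as the marker shape. Prss2 and Try10 were not called, while Prss3, Gm5771, Gm10334 and Prss1 had lower values in OA-AP replicates 1 and 2 than in replicate 3, where they lay nearer to control.

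Prss2, which encodes anionic trypsinogen, was the best kept of the abundant members. It had 45860 and 51360 CPM in control and 35180, 35010 and 43610 CPM in OA-AP. The OA-AP values were lower without overlap, but Prss2 did not pass the test (log2 fold change −0.36, standard error 0.18, edgeR adjusted p = 0.16). Its sign depended on the scaling, since relative to library totals the log2 fold change of Prss2 was 0.35 (adjusted p = 0.0403) and relative to the other acinar secretory genes 0.62 (adjusted p = 0.00185). Both values lay below the medians over all tested genes under these scalings, 0.75 and 1.02, as −0.36 lay below the TMM median of 0.04.

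Try10, a rare member that shares no full read length with another gene, was likewise not called. It had 354 and 379 CPM in control and 225, 282 and 245 CPM in OA-AP. All 3 OA-AP values were lower than both control values. The log2 fold change was −0.55 (standard error 0.14, edgeR adjusted p = 0.0194), below a fold change of 1.5, and it too changed sign with library totals (0.16, adjusted p = 0.372) and with scaling to the other acinar secretory genes (0.43, adjusted p = 0.0314). The last 2 values also lay below the medians over all tested genes, 0.75 and 1.02. Counts of Try10 per 1000 of Prss2 were 7.73 and 7.38 in control and 6.39, 8.04 and 5.63 in OA-AP, which overlapped (exact permutation p = 0.5).

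Try4 and Try5, the near-identical pair that made up 56.1% and 57.0% of the family counts in the 2 control libraries, both fell. Try4 had 49040 and 59200 CPM in control and 12410, 12940 and 22860 CPM in OA-AP. Try5 had 39530 and 41990 CPM in control and 13960, 16230 and 21820 CPM in OA-AP. In both genes OA-AP replicate 3 was nearest to the control values without reaching them. The log2 fold change of Try4 was −1.75 (standard error 0.28, edgeR adjusted p = 0.0032), or 3.37-fold lower. That of Try5 was −1.23 (standard error 0.21, edgeR adjusted p = 0.00383), or 2.35-fold lower. Summed, so that the division of counted reads between them did not matter, Try4 and Try5 gave −1.51 (standard error 0.25, edgeR adjusted p = 0.00298). Try4 stayed called when scaled to the other acinar secretory genes (−0.79, adjusted p = 0.00541), whereas Try5 did not (−0.27, adjusted p = 0.144).

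Prss3, Gm5771, Gm10334 and Prss1, the 4 copies with at least 96.2% identity, were lowest in OA-AP replicates 1 and 2. Prss3 had 13140 and 14550 CPM in control and 137, 188 and 1638 CPM in OA-AP replicates 1, 2 and 3. Gm5771 had 4302 and 5864 CPM in control and 6.04, 9.21 and 367 CPM in OA-AP. Relative to the control mean, Prss3 was thus 101-fold and 73.5-fold lower in replicates 1 and 2 and 8.45-fold lower in replicate 3, and Gm5771 was 842-fold, 552-fold and 13.8-fold lower. Gm10334 had 1321 and 1141 CPM in control and 4.57, 4.63 and 49.8 CPM in OA-AP. Prss1 had 578 and 573 CPM in control and 1.68, 1.83 and 29.97 CPM in OA-AP. All 4 genes were below both control values in every OA-AP library, and in all 4 replicate 3 stood well above replicates 1 and 2.

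The standard errors of these 4 genes were accordingly wide. The log2 fold change of Gm10334 was −5.97 (standard error 1.36, edgeR adjusted p = 0.0332) and that of Prss1 −5.68 (standard error 1.49, adjusted p = 0.0482). For Prss3 it was −4.40 (standard error 1.30, adjusted p = 0.0642) and for Gm5771 −5.32 (standard error 2.08, adjusted p = 0.123), so neither passed. Without OA-AP replicate 3 both passed, with −6.46 for Prss3 (adjusted p = 1.9e-11) and −9.43 for Gm5771 (adjusted p = 7.95e-11). Summed over the 4 copies the level was 20740 ± 1976 CPM in control (SD, n = 2) and 149, 204 and 2085 CPM in the 3 OA-AP libraries, and the fitted log2 difference, −4.67 (standard error 1.33, edgeR adjusted p = 0.0532), did not pass the threshold. Within this group the counts of Gm10334 per 1000 of Prss3 were 101 and 78.4 in control and 33.4, 24.6 and 30.4 in OA-AP, and those of Prss1 44.0 and 39.4 against 12.3, 9.71 and 18.3. Both ratios were lower in OA-AP without overlap (exact permutation p = 0.1 each).

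1810009J06Rik, the member farthest from the rest in sequence and position, had the lowest fitted log2 fold change of the 9 over all 5 libraries, although in OA-AP replicates 1 and 2 alone Gm5771 lay farther below its control mean. It had 3603 and 2580 CPM in control and 7.46, 12.9 and 18.6 CPM in OA-AP. Its log2 fold change was −7.89 (standard error 0.44, edgeR adjusted p = 0.00011). It stayed called under each alternative scaling, filter and left-out library that was run. Gm2663, whose transcript shares 51.7% of the 150-base stretches of 1810009J06Rik, had 785 and 530 CPM in control and 179, 190 and 236 CPM in OA-AP, for a log2 fold change of −1.71 (standard error 0.20, edgeR adjusted p = 0.000758). Counts of 1810009J06Rik per 1000 of Gm2663 were 4587 and 4869 in control and 41.6, 67.9 and 78.9 in OA-AP (exact permutation p = 0.1). Summed, 1810009J06Rik and Gm2663 gave −4.13 (standard error 0.21, edgeR adjusted p = 4.08e-05).

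A further gene of the trypsinogen cluster that is no member, 2210010C04Rik at chr6:41030268-41035509 and 2142 bases long, shared no 150-base stretch with them. It had 57620 and 66480 CPM in control and 16040, 19400 and 12610 CPM in OA-AP, and its log2 fold change was −1.95 (standard error 0.21, edgeR adjusted p = 0.000571). Here OA-AP replicate 3 was the lowest library, whereas in 8 of the 9 members, all but Try10, it was the highest of the 3 OA-AP libraries. Of the other genes between the outermost members only Gm2663, Gm5409, Trbv2 and Trbv3 reached 10 counts in a library. Gm5409 had 0.534 ± 0.513 CPM in control (SD, n = 2) and 0.652 ± 0.528 CPM in OA-AP (SD, n = 3) and did not pass. The T cell receptor segments Trbv2, with 2 and 0 counts in control and 32, 12 and 54 in OA-AP, and Trbv3, with 0 and 1 against 23, 14 and 103, were called higher (edgeR adjusted p = 0.0196 and 0.0336), from few counts and in the opposite direction to the trypsinogens around them.

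The composition of the family counts does not depend on library scaling. These shares cover the 9 members alone. They leave out 2210010C04Rik, which with 671466 and 666790 counts in control pancreas had more than any member there. Prss2 made up 29.1% and 28.9% of the family counts in control and 56.8%, 54.1% and 48.1% in OA-AP, a mean difference of 24.0 percentage points. Try4 went from 32.2% ± 1.58 (SD, n = 2) to 21.75% ± 3.002 (SD, n = 3), while Try5 stayed at 24.4% ± 1.00 and 23.9% ± 1.28 and overlapped between the groups. Prss3, Gm5771, Gm10334 and Prss1 together took 12.3% and 12.5% in control and 0.24%, 0.315% and 2.30% in OA-AP. 1810009J06Rik took 1.87% ± 0.588 in control and 0.0175% ± 0.00473 in OA-AP, and Try10 0.219% ± 0.00785 and 0.356% ± 0.0824. The share was lower without overlap in 6 of the 9 members and higher without overlap in 2, Prss2 and Try10. The exact permutation p was 0.1 for 7 of these 8, the smallest possible, and 0.2 for Try10, so none could pass a threshold of 0.05. The shares are parts of a whole, so they are not separate results, and a share rises when the other members fall more. Prss2 and Try10 had higher shares but lower mean TMM-scaled CPM in OA-AP.

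**Figure D3:**
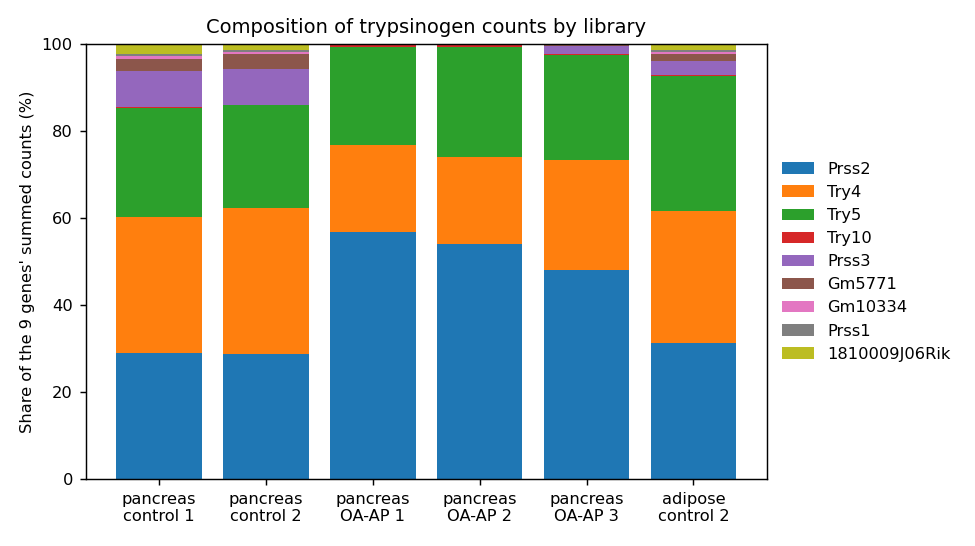
Stacked bars of the share (%) of each trypsinogen cluster gene in the summed counts of the 9 genes, for the 5 pancreas libraries and for adipose control replicate 2. The share of Prss2 was 29.1% and 28.9% in control and 48.1% to 56.8% in OA-AP pancreas.

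The scaling set the sign of the log2 fold change of the 2 best kept members, Prss2 and Try10, and the size of all others. The median over all tested genes moved with it, at 0.04 with TMM factors, 0.75 with library totals and 1.02 with scaling to the other acinar secretory genes. Prss2 and Try10 lay below that median under all 3 scalings. With library totals 2 members were called lower, Try4 and 1810009J06Rik. With scaling to the other acinar secretory genes Try4 and 1810009J06Rik were called lower and Prss2 was called higher. Under all 3 scalings Prss3, Gm5771, Gm10334, Prss1 and 1810009J06Rik had log2 fold changes from −7.89 to −3.51. The 33 other acinar secretory genes had a median of −1.19 with TMM factors, and 20 of them were called lower and 2 higher. The difference between the 5 genes and this list was not tested.

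**Figure D4:**
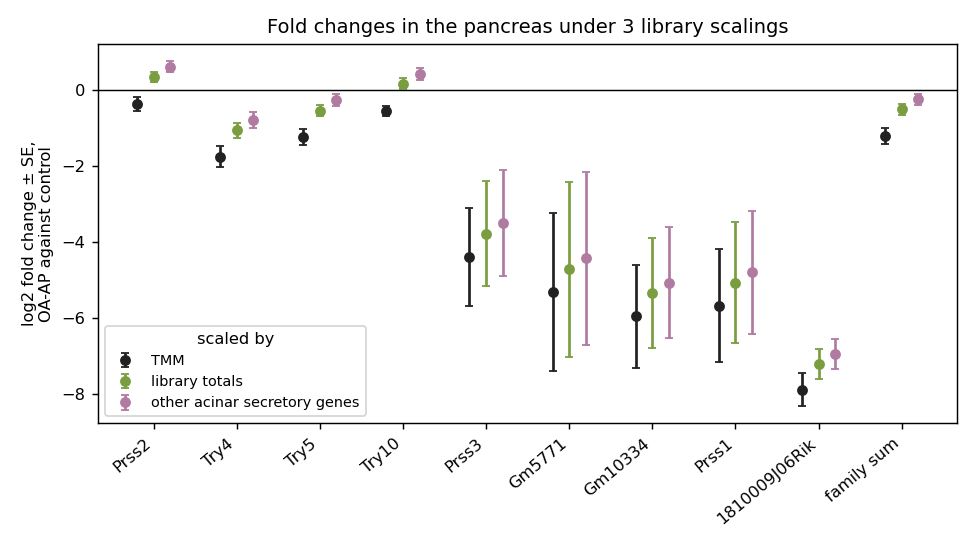
Log2 fold change of OA-AP against control pancreas with its standard error, for each trypsinogen cluster gene and the family sum, under TMM factors, library totals and the summed counts of the other acinar secretory genes. Prss2 and Try10 lay below 0 with TMM and above 0 with the other 2 scalings, and the other members stayed below 0 with all 3. The median over all tested genes was 0.04, 0.75 and 1.02 under the 3 scalings.

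The genes whose levels followed the members most closely over the 5 pancreas libraries were searched among 5690 genes outside the cluster, by the mean absolute difference of centred log2 CPM. For the family sum these were Sdf2l1 (mean difference 0.05), Lgals1 (0.06), Gnptg (0.07), Pik3ap1 (0.07) and Nars (0.08), with Sdf2l1 a chaperone partner of the endoplasmic reticulum and Nars a transfer RNA synthetase. For 1810009J06Rik they were Galnt6os (1.33), Gamt (1.64), Aldh1l2 (1.70), 1810010D01Rik (1.97) and Scd2 (2.02). None of these 5 was close on this scale, since the smallest mean difference was over 1 on the log2 scale. Gamt, which makes creatine, had a log2 fold change of −4.56, and Aldh1l2, a mitochondrial folate enzyme, of −4.43.

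Genes that act on trypsinogen or trypsin were followed by a list of 17, of which 16 were in the table, 8 passed the filter in the pancreas, 3 were called lower and 1 higher. Among all tested pancreas genes 13.5% were called lower and 16.2% higher. Spink1, the trypsin inhibitor of acinar cells, had 1105 and 1256 CPM in control and 520, 575 and 555 CPM in OA-AP, for a log2 fold change of −1.10 (standard error 0.14, edgeR adjusted p = 0.000989). Ctrc, which degrades trypsinogen, had 428 and 527 CPM in control and 162.6, 249.1 and 95.71 CPM in OA-AP (log2 fold change −1.498, adjusted p = 0.0256). Serpini2, a serpin of the exocrine pancreas, had 894 and 929 CPM in control and 84.9, 117 and 57.2 CPM in OA-AP (log2 fold change −3.40, adjusted p = 0.000271). All 3 were lower in every OA-AP library than in either control library. Scaled to the other acinar secretory genes Spink1 had a log2 fold change of −0.12 (adjusted p = 0.513) and Ctrc of −0.49 (adjusted p = 0.372), and neither was called.

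Among the cathepsins, lysosomal proteases that cut trypsinogen, 1 was called. Ctsl, which inactivates it, had 200 and 207 CPM in control and 532, 454 and 793 CPM in OA-AP and was called higher (log2 fold change 1.55, standard error 0.24, edgeR adjusted p = 0.00286). Ctsb, which activates it, had 79.9 ± 4.65 CPM in control (SD, n = 2) and 112 ± 42.4 CPM in OA-AP pancreas (SD, n = 3), which overlapped (log2 fold change 0.49, adjusted p = 0.227). Ctsb was called higher with library totals (1.17, adjusted p = 0.00337) and when scaled to the other acinar secretory genes (1.44, adjusted p = 0.000607). Under these scalings the median over all tested genes was itself 0.75 and 1.02, so both values are to be read against that shift. The remaining tested genes did not pass, with log2 fold changes of 0.23 for Ctsd, a lysosomal aspartic protease, 0.07 for Serping1 and −0.38 for Itih4, both plasma inhibitor family genes. Tmprss15, which encodes enteropeptidase, and A2m had 0 counts in every library of both tissues.

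Zymogens that trypsin activates were represented by 13 genes, all tested, of which 9 were called lower and none higher, with a median log2 fold change of −1.20. Among the called genes were Pla2g1b, a phospholipase (−2.55, edgeR adjusted p = 9.63e-05), Clps, the cofactor of pancreatic lipase (−1.87, adjusted p = 0.000989), Ctrc, and Cela2a, an elastase (−1.39, adjusted p = 0.000954). Their values ran from −2.55 to 0.38, and the called members Gm10334, Prss1 and 1810009J06Rik lay below this range.

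Transcription factors of the acinar cell differed among themselves. Rbpjl, a subunit of the complex that drives zymogen genes, had 725 and 733 CPM in control and 84.3, 135 and 97.0 CPM in OA-AP (log2 fold change −2.79, standard error 0.20, edgeR adjusted p = 0.000114). Bhlha15, which maintains secretory architecture, had 251 and 322 CPM in control and 42.0, 59.6 and 26.7 CPM in OA-AP (log2 fold change −2.74, standard error 0.32, adjusted p = 0.00144). In contrast Ptf1a, the partner of Rbpjl, had 13 ± 2.73 and 13.9 ± 2.14 CPM and Nr5a2 41.4 ± 8.01 and 41.4 ± 4.10 CPM, and neither passed. Of the 10 regulators 5 were called lower, among them Foxa2 (−1.22, adjusted p = 0.00692) and Gata4 (−0.81, adjusted p = 0.00326), the latter with a log2 fold change of 0.17 when scaled to the other acinar secretory genes. Xbp1, a factor of the unfolded protein response, was called higher (0.97, adjusted p = 0.0183).

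In adipose tissue trypsinogen RNA was found almost wholly in 1 library. Control replicate 2 held 46636 counts of the family, 0.207% of its total, while control replicates 1 and 3 held 5 each and OA-AP replicates 1, 2 and 3 held 2, 4 and 17. All 9 members were present in control replicate 2, with 14577 counts of Prss2, 14553 of Try5, 14122 of Try4, 1463 of Prss3, 733 of Gm5771, 664 of 1810009J06Rik, 255 of Gm10334, 164 of Prss1 and 105 of Try10. No member exceeded 8 counts in any of the other 5 libraries, where Prss1, Try10, 1810009J06Rik and Gm10334 had 0. A count of 0 allows up to 3 counts, and intervals and limits here cover counting error only.

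**Figure D5:**
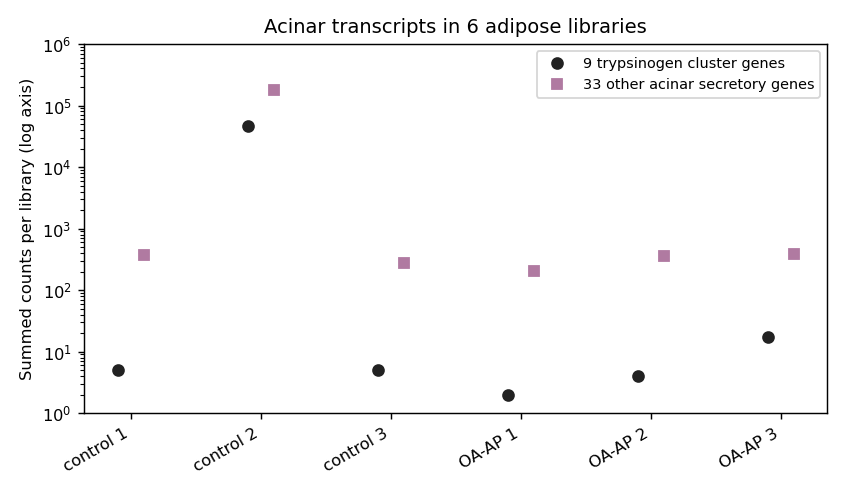
Summed counts per library (log axis) of the 9 trypsinogen cluster genes and of 33 other acinar secretory genes in the 6 adipose libraries. Control replicate 2 held 46636 and 178094 counts, and the other 5 libraries held 2 to 17 and 204 to 381.

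Other acinar secretory genes were high together with the trypsinogens in that library, with 178094 counts against 204 to 381 in the other 5 adipose libraries. Lymphocyte markers, all 9 with counts in every adipose library, summed to 1143 counts there against 79 to 501 elsewhere, adipocyte markers at 3.99% of counts were within the 3.02% to 4.36% of the other libraries, and islet markers at 15 counts were within 6 to 26. The source of the acinar RNA in this library was not tested. Its composition over the 9 members was 31.3% Prss2 (exact 95% binomial interval 30.8% to 31.7%), 30.3% Try4 (29.9% to 30.7%) and 31.2% Try5 (30.8% to 31.6%). Prss3, Gm5771, Gm10334 and Prss1 together took 5.61%. In control pancreas the latter 4 took 12.3% and 12.5%, and in OA-AP pancreas at most 2.30%. 1810009J06Rik per 1000 of Gm2663 was 617 in it, between the control and the OA-AP values of the pancreas.

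No member passed the filter on low counts in adipose tissue, so none of the 9 was tested there, beside 25.1% of 15839 tested genes called in either direction. With the filter removed, the family sum had a log2 fold change of −10.72 (edgeR adjusted p = 0.243), which rested on control replicate 2. Without control replicate 1 or control replicate 3 the family sum passed the filter and the test (adjusted p = 0.04904 and 0.04999), and control replicate 2 was then 1 of 2 controls. Without OA-AP replicate 1 or OA-AP replicate 2 the family sum passed the filter but not the test (adjusted p = 0.27 and 0.277). Adipose OA-AP and control tissue cannot be compared for these genes beyond the counts given.

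The difference between tissues in the OA-AP response was tested on the family sum with all 11 libraries, taken as independent. The sources used here do not say whether the 2 tissues came from the same mice. The log2 fold change in adipose tissue minus that in the pancreas was −9.51 (standard error 4.02, edgeR adjusted p = 0.12), and without adipose control replicate 2 it was 2.24 (standard error 0.93, adjusted p = 0.122). The sign changed without that library, and neither value passed. None of the 9 single members was called in this test, where 20.6% of 17046 genes were.

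Of the genes that act on trypsin, 9 of the 17 were tested in adipose tissue, and 1 was called higher and 1 lower. Among all 15839 genes tested there 25.1% were called in either direction. Ctsl was called higher there too, with 317, 369 and 303 CPM in control and 519, 752 and 593 CPM in OA-AP (log2 fold change 0.91, standard error 0.17, edgeR adjusted p = 0.00629). Serpina1a, a member of the antitrypsin family with near-identical copies, was called lower, with 2.40, 6.74 and 3.13 CPM in control and 0.829, 0.962 and 0.707 CPM in OA-AP (log2 fold change −2.28, adjusted p = 0.00773). Ctsb and Ctsd were higher in every OA-AP library but under a 1.5-fold change (log2 0.46 and 0.57, adjusted p = 0.0317 and 0.0219), and Serpina1b, Serpina1d, Serpina1e, Serping1 and Itih4 did not pass. Spink1, Serpini2 and Ctrc had counts only in control replicate 2. Rbpjl was called lower in adipose tissue (−4.17, adjusted p = 0.0474) with 132 counts in control replicate 2 against 12 and 19 in the other controls and 1 to 4 in OA-AP, and without control replicate 2 or 3 it did not pass the filter. Xbp1 was called higher (1.80, adjusted p = 0.00198).

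Trypsin also signals through protease-activated receptor 2, encoded by F2rl1. In the pancreas F2rl1 had 0.772 and 0.897 CPM in control and 2.05, 2.80 and 3.03 CPM in OA-AP (log2 fold change 1.65, standard error 0.40, edgeR adjusted p = 0.016). In adipose tissue it had 3.47, 6.19 and 4.22 CPM in control and 2.12, 1.20 and 2.27 CPM in OA-AP (log2 fold change −1.31, standard error 0.32, adjusted p = 0.0188). The receptor was higher in every OA-AP pancreas and lower in every OA-AP adipose library than in any control of the same tissue. Its counts were low, at 9 in each control pancreas and 39 to 58 in OA-AP pancreas.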

How the data were processed

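The counts per gene were deposited by the authors as 1 table for each tissue, unnormalised. Per the labels and the study's methods, 150-base paired reads were trimmed (Trim Galore 0.6.6, fastp 0.20.1), aligned with STAR to the GRCm38 mouse genome and counted per gene with featureCounts 2.0.1. The annotation, the strand setting and the treatment of reads with several matches are not given in the sources used here. Gene lengths deposited beside the counts were used only for levels per kilobase.

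OA-AP was compared with control within each tissue by edgeR 4.0.16 quasi-likelihood tests (R 4.3.3) with TMM factors and filterByExpr, leaving 12884 pancreas and 15839 adipose genes, and p-values were adjusted by Benjamini-Hochberg over all of them. The study's own comparison used DESeq2, which was run as an alternative (version 1.42.0). For the family sum, 1 row replaced the 9 members and the whole table was refitted. Shares were compared by two-sided exact permutation tests, unadjusted. Tissue differences were interaction terms over all 11 libraries, with no term for the mouse in the main fit.

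Named were the 9 members, counted genes of a list acting on trypsinogen or trypsin, the called genes with the largest changes (up to 5 a list) among zymogens, acinar regulators and protease-activated receptors, genes between the outermost members with 10 counts or more in a library and, by mean absolute difference, the 5 genes nearest to the family sum and to 1810009J06Rik. The members and lists were chosen with earlier results of these data known. A gene this rule selects is not reported here. Ptf1a and Nr5a2 were added after their values were seen. Alternatives covered normalization, low-count filters, fold thresholds, left-out libraries and a replicate block. Sums over copies were added after seeing the data. The tests were first tried on simulated counts.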

Additional observations from a re-analysis of the deposited data

Results flagged for a closer look

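F2rl1, the receptor cleaved by trypsin, moved in opposite directions in the 2 tissues. The test of the difference itself, the log2 fold change of OA-AP against control in adipose tissue minus that in the pancreas, gave −2.97 (standard error 0.53, edgeR adjusted p = 0.0023). This fit took the libraries of both tissues as independent, although they may come from the same mice. The value of F2rl1 was higher in 3 of 3 OA-AP pancreas libraries and lower in 3 of 3 OA-AP adipose libraries than in any control of the tissue. Over the alternatives the difference ran from −3.80 to −2.76 and the adjusted p from 9.45e-06 to 0.0189. Within the tissues the call was less firm. The pancreas call was lost without control replicate 1 (adjusted p = 0.112) or control replicate 2 (adjusted p = 0.0905), and the adipose call without control replicate 2 (log2 fold change −1.04, adjusted p = 0.0526), the library with the acinar counts.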

How the results depend on the processing

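Of the 9 members, 5 were called in the pancreas, against 2 with library totals, 3 without a filter on low counts, 3 when scaled to the other acinar secretory genes (2 lower and Prss2 higher) and 2 to 7 with 1 library left out. The family sum was −0.51 with library totals, −0.24 when scaled to the other acinar secretory genes and −1.45 to −1.12 with 1 library left out. With library totals and with acinar scaling, the log2 fold change of Prss2 changed sign to 0.35 and 0.62 and that of Try10 to 0.16 and 0.43, and with acinar scaling Gata4 changed to 0.17. All of these lay below the medians over all tested genes, 0.75 with library totals and 1.02 with acinar scaling. Gm10334 and Prss1 lost their call under both scalings, without the filter, and without OA-AP replicate 2, control replicate 1 or control replicate 2. Prss3 was called by DESeq2 (adjusted p = 0.0084) and when 10 counts were required in every library (adjusted p = 0.0475). In adipose tissue 9 genes that act on trypsin and 3 that it activates were tested, and 2 were called, beside 25.1% of all tested genes. The number was 1 at a fold change of 2, 4 without a fold threshold and 2 to 4 with 1 library left out. The tissue difference of the family sum ran from −10.88 to 2.24 with 1 library left out, the latter without adipose control replicate 2, and could not be computed with 10 counts required in every library. Apart from the scalings, the cause of these changes was not tested.

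Deviations from the group mean of same-numbered control and OA-AP libraries correlated across genes at 0.001 and −0.041 in the pancreas. In adipose tissue they correlated at −0.163 to 0.056. These values gave no sign of pairing by replicate number but cannot exclude it. With 2 pancreas controls, the deviations of one mirror those of the other, and the check did not look across tissues. With the replicate block 7 members were called in the pancreas and the family sum was −1.40. F2rl1 in adipose tissue lost its call with the block (adjusted p = 0.0556), and the tissue difference of the family sum was −8.18 (adjusted p = 0.347).

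The 2 pancreas controls limit every test there, and an exact test of 2 against 3 libraries cannot go below p = 0.1. Reads shared among copies limit the values of single genes, other than Prss2 and Try10, and, if they were left uncounted, the sums and shares too.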
